A study of Mus musculus with 8 samples.

Results

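The enzymes of the hepatic methionine cycle and the one-carbon pathways joined to it were followed in livers of Brap LKO mice and of control mice. They were picked out by gene symbol as 9 of the 24451 genes in the deposited table: Mat1a, Gnmt, Ahcy, Bhmt, Pemt, Nnmt, Cbs, Cth and Shmt1. Left liver lobes of 4 Brap LKO mice (Brap fl/fl with Alb Cre) and 4 Brap F/F mice (Brap fl/fl without Cre) were compared by bulk RNA sequencing. The mice, C57BL/6 by their labels (a C57BL/6J background and males by the study's methods), were 18 wk old and had gone 6 h without food. In both groups exons 2 and 3 of Brap are floxed. In the Brap LKO mice the Albumin promoter drives Cre, so that the deletion is aimed at hepatocytes. Whether other cells of the tissue lost Brap was not examined here. Without a group that carries Cre and intact Brap, an effect of Cre itself cannot be told apart from that of the deletion.

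Hepatocytes turn methionine into S-adenosylmethionine, the methyl donor of most methylation reactions, and the liver is the main site of this cycle. Once the methyl group is given away, S-adenosylhomocysteine is left and is split to homocysteine. Homocysteine is either methylated back to methionine, with betaine or folate as the source, or is passed down the transsulfuration route to cysteine.

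None (0) of the 9 enzymes differed between Brap LKO and Brap F/F livers at an adjusted p-value under 0.05 (limma on log2(normalized count + 1), Benjamini-Hochberg adjustment over 15352 tested genes). In that comparison 0.769% of all tested genes passed. Before adjustment, too, 0 of 9 had a p-value under 0.05, where 15.8% of all tested genes did. In all 9 enzymes the 2 groups overlapped, whereas in 9.87% of tested genes they did not. Count tests on reads recovered from the table gave the same number at the adjusted threshold, 0 of 9 with edgeR (0.795% of all tested genes) and 0 of 9 with DESeq2 (4.07%). Before adjustment, edgeR had 0 of 9 under 0.05 (15.6% of all tested genes) and DESeq2 had 1 of 9 (15.9%), which was Gnmt (DESeq2 adjusted p = 0.297). All 9 enzymes passed the filter on low values with at least 2412 reads in every liver, so counting error was small beside the spread between mice.

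The libraries held 26280884 to 33313914 gene reads each. The normalized count of the targeted gene, Brap, lay between 3641 and 4203 in the Brap LKO livers and between 3994 and 4410 in the controls (-0.07 on the log2 scale, limma adjusted p = 0.631). Reads on the floxed exons were not analysed here, so this whole-gene count does not check the labels. Hepatocyte markers were abundant in every liver, and their summed normalized count over 9 genes ranged from 2102184 to 2880242 in the Brap LKO livers and from 2609631 to 3965103 in the Brap F/F livers. In bulk tissue, fewer cells of a type and less RNA per cell cannot be told apart.

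The level of each mRNA was set against the others per length, as normalized counts per kilobase of exon. Gnmt stood highest, at 32074 ± 2397 in Brap LKO and 39679 ± 8083 in Brap F/F livers (SD, n = 4 each). Mat1a came next with 27572 ± 4896 and 35186 ± 7757 (SD, n = 4 each). Both mRNAs were far above the rest of the set, and Gnmt exceeded Mat1a in 8 of 8 livers. Bhmt followed with a mean of 3551 per kilobase over the 8 livers, and every liver had more Mat1a than Bhmt on this scale. Pemt (2452), Cth (2397), Ahcy (2162) and Nnmt (2053) came next. Neighbours among these 4 exchanged places from liver to liver, with the higher mean leading in only 5 of 8 livers for each neighbouring pair. Cbs (1430) and Shmt1 (1366) were lowest, and Cbs led Shmt1 in 6 of 8 livers. Lengths are the union of all annotated exons, so a gene with long alternative exons, such as Cbs, is placed lower than its main transcript would be. Together the 9 enzymes took 0.675% ± 0.0698 of all gene reads in Brap LKO and 0.727% ± 0.109 in Brap F/F livers (SD, n = 4 each), which did not differ beyond the spread (two-sided exact permutation test, p = 0.371).

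**Figure D1:**
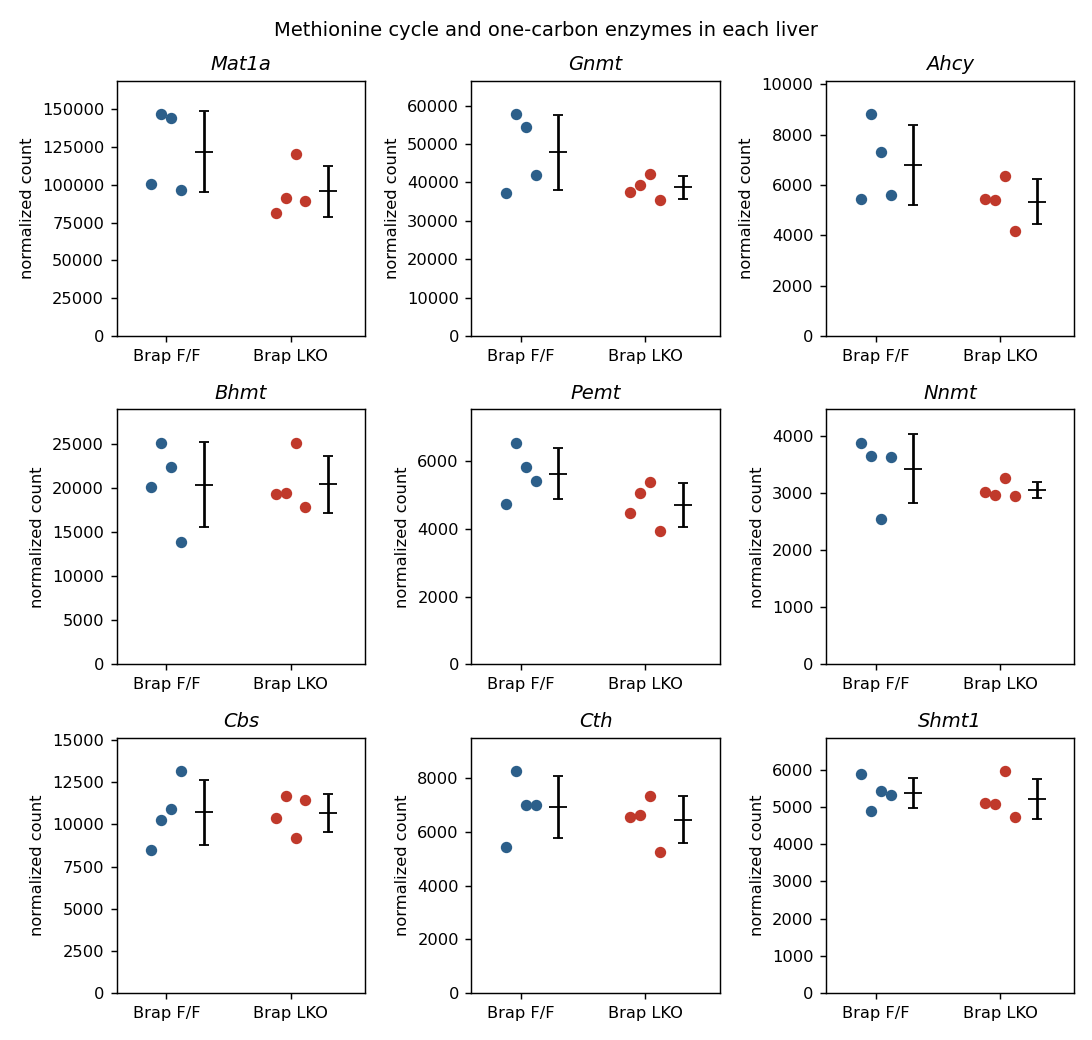
Normalized count (linear axis from 0) of each of the 9 enzymes in each liver, with Brap F/F livers in blue and Brap LKO livers in red, in replicate order from left to right within a group. Black bars give the mean and SD of 4 livers. In every panel the groups overlap, and in every panel but that of Shmt1 the SD is larger among the Brap F/F livers.

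Mat1a encodes the liver form of methionine adenosyltransferase, which makes S-adenosylmethionine. The gene lies on the forward strand of chromosome 14 of mm10, from 41105035 to 41124412. Its normalized counts were 81659, 91450, 120307 and 89059 in Brap LKO replicates 1 to 4 and 100755, 146648, 143876 and 96825 in Brap F/F replicates 1 to 4. Brap F/F replicates 2 and 3 stood above all other livers, while Brap LKO replicate 3 stood above the remaining Brap F/F livers. The log2 fold change was -0.34 (standard error 0.202, 95% confidence interval -0.79 to 0.11), a fold of 0.790 with an interval from 0.577 to 1.08 (adjusted p = 0.440 from limma). Of all 9 enzymes, Mat1a had the lowest fitted value and the lowest lower bound.

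Gnmt encodes glycine N-methyltransferase, which uses up S-adenosylmethionine by methylating glycine and so limits its excess. It lies on the reverse strand of chromosome 17, from 46725664 to 46729168. Its normalized counts were 37584, 39393, 42286 and 35461 in the Brap LKO livers and 37293, 57742, 54331 and 42043 in the Brap F/F livers. High values again belonged to Brap F/F replicates 2 and 3. The coefficient of variation was 7.47% among the Brap LKO livers and 20.4% among the Brap F/F livers. On the log2 scale the groups differed by -0.29 (standard error 0.154, 95% confidence interval -0.63 to 0.06, limma adjusted p = 0.394).

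Ahcy encodes adenosylhomocysteinase, which splits S-adenosylhomocysteine to homocysteine and adenosine. It lies on the reverse strand of chromosome 2, from 155059310 to 155074497. Brap LKO livers had normalized counts of 5455, 5388, 6357 and 4152, and Brap F/F livers of 5461, 8807, 7293 and 5612. Of the Brap LKO livers, 3 were below every Brap F/F liver, and replicate 3 was above Brap F/F replicates 1 and 4. Brap LKO replicate 4 was the lowest of all 8. This gave a log2 fold change of -0.34 (standard error 0.174, 95% confidence interval -0.73 to 0.06, limma adjusted p = 0.382).

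Bhmt encodes betaine-homocysteine methyltransferase, which returns homocysteine to methionine with betaine as the methyl source. It lies on the reverse strand of chromosome 13, from 93616675 to 93637961. The normalized counts were 19333, 19454, 25153 and 17869 in the Brap LKO livers and 20175, 25194, 22487 and 13915 in the Brap F/F livers. Both the highest and the lowest value came from the Brap F/F group. The group means were nearly equal, at 20452 ± 3216 and 20443 ± 4811 (SD, n = 4 each), and the log2 fold change of 0.02 had a 95% confidence interval from -0.39 to 0.44 (limma adjusted p = 0.964). The fitted value was -0.15 once Brap F/F replicate 4 was left out. Of the exon bases of Bhmt, 187 (3.25%) are shared with Gm15622 on the opposite strand.

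Upstream sequence is shown for Gnmt, Ahcy and Bhmt, each with a single start in the RefSeq table used. The mRNAs of these 3 enzymes of the cycle varied together between livers of the same group (values are given with the deviations from the group means). The 3 were picked after those values were seen. Each sequence is the 250 bases before the RefSeq start on the reverse strand of GRCm38.p6, written 5′ to 3′ as the gene is read. Capitals mark matches, on either strand, to the core promoter element TATAA, to CCAAT, a common upstream element, to GGGCGG, the element of Sp1-type factors, and to AGGTCA, an element that many nuclear receptors bind. The windows are chr17:46729166-46729415 for Gnmt, chr2:155074498-155074747 for Ahcy and chr13:93637759-93638008 for Bhmt. For Bhmt the RefSeq start lies inside the gene as placed above, which begins at 93637961, so most of its window is within that gene. Its AGGTCA matches 72 and 47 bases before the RefSeq start and its CCAAT match at 56 bases lie in that part. Only its AGGTCA match at 234 bases is upstream of both starts.
Gnmt: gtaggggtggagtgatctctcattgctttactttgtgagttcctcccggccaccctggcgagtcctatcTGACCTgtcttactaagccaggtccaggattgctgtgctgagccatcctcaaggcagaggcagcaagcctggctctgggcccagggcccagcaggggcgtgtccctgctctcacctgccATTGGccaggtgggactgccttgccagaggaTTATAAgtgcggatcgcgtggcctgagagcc
Ahcy: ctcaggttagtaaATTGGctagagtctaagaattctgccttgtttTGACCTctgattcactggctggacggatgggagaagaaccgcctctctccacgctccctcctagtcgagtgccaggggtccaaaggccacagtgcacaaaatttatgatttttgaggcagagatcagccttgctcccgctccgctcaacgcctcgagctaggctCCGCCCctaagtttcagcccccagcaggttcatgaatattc
Bhmt: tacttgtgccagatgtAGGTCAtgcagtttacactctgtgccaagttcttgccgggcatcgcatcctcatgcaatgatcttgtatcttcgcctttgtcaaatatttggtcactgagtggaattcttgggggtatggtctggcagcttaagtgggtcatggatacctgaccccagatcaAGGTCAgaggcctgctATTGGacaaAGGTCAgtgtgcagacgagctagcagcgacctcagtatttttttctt

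All 3 windows held AGGTCA, with 1 match in Gnmt, 1 in Ahcy and 3 in Bhmt, and 14.0% of 32851 windows of this length in the RefSeq table hold it. No match to AGGTCA lay in the 2 windows of Pemt, which varied with Gnmt and Ahcy more closely than Bhmt did, or in those of Shmt1 and Cbs. Mat1a and Cth also varied with Gnmt and Ahcy more closely than Bhmt did. Neither they nor Nnmt are in the RefSeq table used, so their windows were not read. The windows of Gnmt, Ahcy and Bhmt also each held 1 match to CCAAT, found in 33.8% of all windows. CCAAT was likewise in the windows of Shmt1 and Cbs and in 1 of the 2 windows of Pemt. TATAA was found only in Gnmt of these 3, on both strands of the overlapping letters TTATAA about 30 bases before the start, and is found in 22.8% of all windows. GGGCGG was found only in Ahcy of these 3, on the opposite strand, and is found in 32.7% of all windows. The matches are a description of letters, and no binding was measured.

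Pemt encodes phosphatidylethanolamine N-methyltransferase, which makes phosphatidylcholine and is among the large users of S-adenosylmethionine in liver. It lies on the reverse strand of chromosome 11, from 59970614 to 60046489. Its normalized counts were 4456, 5045, 5365 and 3923 in the Brap LKO livers and 4729, 6533, 5810 and 5413 in the Brap F/F livers. Brap LKO replicates 2 and 3 lay above Brap F/F replicate 1, so the groups overlapped. The log2 fold change was -0.26 (standard error 0.124, 95% confidence interval -0.54 to 0.02). Pemt had the smallest p-value of the 9 enzymes, at 0.0638 before and 0.347 after adjustment in limma, which placed it at rank 2825 of the tested genes (two-sided exact permutation test, p = 0.114).

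Nnmt encodes nicotinamide N-methyltransferase, which methylates nicotinamide with S-adenosylmethionine. It lies on the reverse strand of chromosome 9, from 48591877 to 48605153. The Brap LKO livers had normalized counts of 3024, 2968, 3261 and 2941, and the Brap F/F livers of 3878, 3648, 2535 and 3627. Brap F/F replicate 3 had the lowest value of all 8 livers and the other Brap F/F livers the highest. The Brap LKO livers lay close together (coefficient of variation 4.78%, against 17.6% in the Brap F/F livers). The fitted difference was -0.15 on the log2 scale (95% confidence interval -0.43 to 0.13, limma adjusted p = 0.586). It was -0.29 once that low liver, Brap F/F replicate 3, was left out, with a limma p of 0.00287 before and 0.132 after adjustment. That liver was singled out by its low Nnmt, so this p-value is a description and no test. Over the 8 fits that each left out 1 liver, the fitted difference ranged from -0.29 to -0.08.

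Cbs and Cth encode cystathionine beta-synthase and cystathionine gamma-lyase, which carry homocysteine to cysteine. Cbs lies on the reverse strand of chromosome 17, from 31608894 to 31637238, and Cth on that of chromosome 3, from 157894248 to 157925077. The normalized counts of Cbs were 10404, 11712, 9214 and 11427 in the Brap LKO livers and 8482, 10285, 10929 and 13161 in the Brap F/F livers. Each Brap LKO value lay inside the Brap F/F range. For Cbs the log2 fold change was 0.0080 (95% confidence interval -0.30 to 0.31, limma adjusted p = 0.982), and its p-value was the largest of the 9. The normalized counts of Cth were 6547, 6642, 7360 and 5252 in the Brap LKO livers and 5433, 8266, 6993 and 7023 in the Brap F/F livers. Brap LKO replicate 4 and Brap F/F replicate 1 had the lowest Cth of their groups. Its log2 fold change was -0.10 (95% confidence interval -0.41 to 0.22, adjusted p = 0.758 from limma).

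Shmt1 encodes the cytosolic serine hydroxymethyltransferase, which moves a carbon unit between serine and folate. It lies on the reverse strand of chromosome 11, from 60788104 to 60811718, and shares 184 of its exon bases (4.74%) with Smcr8 on the opposite strand. Its normalized counts were 5105, 5072, 5965 and 4730 in the Brap LKO livers and 5883, 4906, 5437 and 5323 in the Brap F/F livers. It varied least over the 8 livers, by 1.26-fold between the lowest and the highest, and both of these extremes were Brap LKO livers. Its log2 fold change of -0.05 had the narrowest interval of the 9 enzymes, from -0.25 to 0.15, which is a fold from 0.842 to 1.11 (adjusted p = 0.815 from limma).

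**Figure D2:**
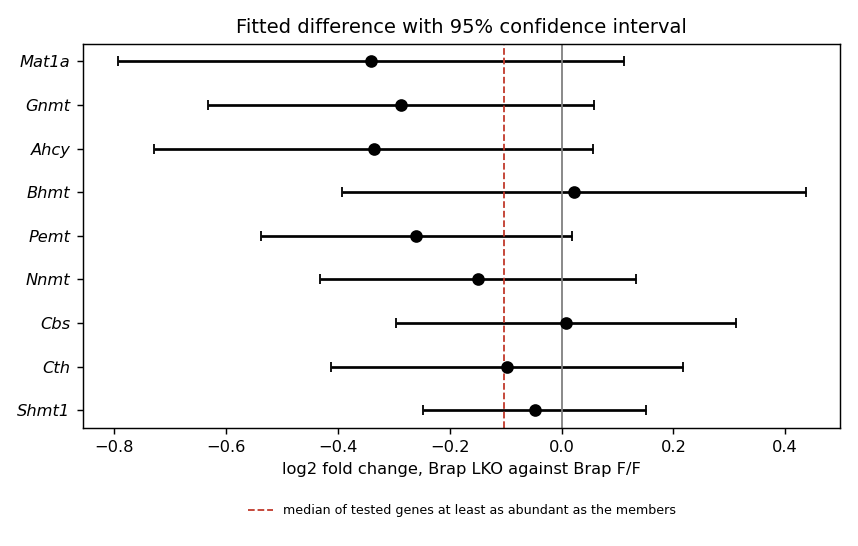
Log2 fold change of each enzyme in Brap LKO against Brap F/F livers (x axis), with its 95% confidence interval from limma, 4 livers per group. The dashed line is the median of the 1282 tested genes at least as abundant as the least abundant of the 9, at -0.10. Every interval includes 0, and the widest runs from -0.79 to 0.11 for Mat1a.

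The fitted value was below 0 for 7 of the 9 enzymes and above 0 for Bhmt and Cbs, with a median of -0.15. Over all tested genes the median was -0.01, and 52% of fitted values were below 0. Abundant genes stood lower than that. Of the 1282 tested genes with a mean normalized count at least that of Nnmt, the least abundant of the 9, 77.3% had a fitted value below 0 and the median was -0.10. The scaling moved these signs. With the same total of reads set for each liver, the median of all tested genes was 0.15 and 4 of the 9 enzymes (Mat1a, Gnmt, Ahcy and Pemt) had a value below 0, although 7 of 9 were below that median, as in the fit with the authors' size factors. After quantile normalization 5 of the 9 were below 0. Mat1a, Gnmt, Ahcy and Pemt had values below 0 under all 19 other settings tried, none of which brought any of the 9 past the adjusted threshold.

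Livers of the same group differed in several of these enzymes together. After each group's mean was taken away, the log2 values of Mat1a, Gnmt, Ahcy, Bhmt, Pemt and Cth were positively correlated in 15 of 15 pairs over the 8 livers, with Pearson's r from 0.44 for Bhmt with Cth to 0.95 for Pemt with Cth. Pemt had an r of 0.92 with Ahcy and 0.86 with Gnmt. Gnmt and Ahcy had an r of 0.91, Ahcy and Bhmt 0.79, and Gnmt and Bhmt 0.68. Brap LKO replicate 3 and Brap F/F replicates 2 and 3 were above their group's mean in each of these 6 genes, and Brap LKO replicate 4 was below it in each. Nnmt, Cbs and Shmt1 did not share this pattern, and in the 21 pairs that include 1 or more of them r ranged from -0.67 for Bhmt with Cbs to 0.26 for Bhmt with Shmt1. Cbs stood out by its lowest value in Brap F/F replicate 1 and its highest in Brap F/F replicate 4, where Bhmt was lowest. These correlations share libraries and size factors, the 6 genes were grouped after their values were seen, and they are given as a description.

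**Figure D3:**
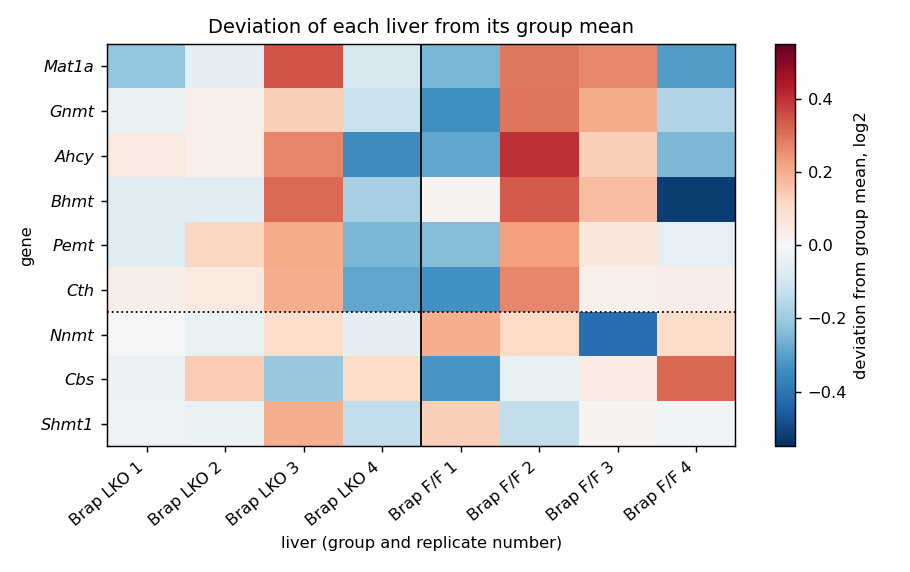
Deviation of log2(normalized count + 1) from the mean of the liver's own group (colour, from blue below to red above), for the 9 enzymes (rows) in the 8 livers (columns, Brap LKO left of the solid line). Brap LKO replicate 3 and Brap F/F replicates 2 and 3 are above their group mean in each of the 6 upper rows, from Mat1a to Cth, and the lower rows (Nnmt, Cbs and Shmt1) differ from them.

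The genes most like the 3 enzymes with the smallest p-values were sought over all tested genes with the same group-centred values (Pearson's r over 8 livers). Pemt was nearest to Epn1 (0.978), Pbld2 (0.973) and Ftl1 (0.970). Ahcy was nearest to Mif (0.993), Atp5l (0.992) and Plcl2 (0.988). Gnmt was near to Gm47814 (0.986) and Crcp (0.986). None of these 8 genes is on the lists of pathway genes used here, and none passed the adjusted threshold (lowest adjusted p = 0.251 from limma, for Pbld2). With 15352 genes and 8 livers, r values of this size are a ranking and no more.

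The rest of the pathway was covered by 8 lists that hold 99 further gene symbols, of which 96 were in the table and 95 were tested. None (0) of the 95 passed the adjusted threshold in limma (0.769% of all tested genes did). Before adjustment 12 of the 95 had a p-value under 0.05, with 2 fitted above 0 (Aox3 and Tpmt) and 10 below 0, beside the 15.8% of all tested genes. The fitted value was below 0 in 78 of the 95 genes, with a median of -0.09. Over all tested genes 52% were below 0 (median -0.01). Of the tested genes at least as abundant as Nnmt, 77.3% were (median -0.10). Many of the 95 are less abundant than Nnmt, so that share is not matched to them in abundance. edgeR called 0 of the 95 (11 at an unadjusted p-value under 0.05). DESeq2 called 4 (15 at an unadjusted p-value under 0.05), where it called 4.07% of all tested genes. Those 4 were Aox3, Gcsh, Nmnat1 and Cept1. The groups did not overlap in 5 of the 95 genes (Aox3, Nmnat1, Gcsh, Chkb and Mtrr), where they did not in 9.87% of all tested genes.

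Aox3, an aldehyde oxidase that oxidizes N-methylnicotinamide, the product of Nnmt, had normalized counts of 39613, 35940, 29198 and 35044 in the Brap LKO livers and 22440, 22594, 26628 and 27938 in the Brap F/F livers. Every Brap LKO liver was above every Brap F/F liver. The log2 fold change was 0.49 (standard error 0.124), with an adjusted p of 0.110 from limma and 0.00493 from DESeq2. In the nicotinamide list, which has 12 tested genes and a median of -0.06, Nmnat1, which makes NAD, went the other way without overlap, at 399 ± 51.7 in the Brap LKO and 537 ± 63.0 in the Brap F/F livers (SD, n = 4 each, log2 fold change -0.43). Its adjusted p was 0.137 from limma and 0.0428 from DESeq2. Aox1, another aldehyde oxidase of this list, had a log2 fold change of 0.12 and groups that overlapped (limma adjusted p = 0.681).

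Among choline, betaine and glycine genes (18 tested, median -0.15), 16 had a fitted value below 0 and 4 an unadjusted p-value under 0.05, namely Cept1, Gcsh, Chkb and Chdh. Cept1, which completes the making of phosphatidylcholine and phosphatidylethanolamine, had 1271 ± 82.8 and 1600 ± 179 normalized counts in the Brap LKO and Brap F/F livers (SD, n = 4 each). Its log2 fold change was -0.33, with an adjusted p of 0.141 from limma and 0.0497 from DESeq2. Gcsh, the carrier protein of the glycine cleavage system, had 1869, 1815, 1835 and 1757 in the Brap LKO livers and 2203, 2060, 2094 and 2018 in the Brap F/F livers. There was no overlap, but the difference was small, at -0.20 on the log2 scale (adjusted p = 0.142 from limma and 0.0286 from DESeq2). Chkb, a choline kinase, also had groups that did not overlap (184 ± 10.8 and 233 ± 30.9, SD, n = 4 each, adjusted p = 0.217 from limma).

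Of the folate genes (19 tested, median -0.07), Fpgs, which adds the glutamate tail that keeps folate in cells, had the smallest p-value. It had 4390 ± 548 and 5665 ± 789 normalized counts in the Brap LKO and Brap F/F livers (SD, n = 4 each, log2 fold change -0.37, adjusted p = 0.204 from limma). Of the other methionine cycle genes (9 tested, median -0.08), Mtrr, which reactivates methionine synthase, had 271 ± 12.7 and 318 ± 17.1 (SD, n = 4 each) with no overlap of the groups (log2 fold change -0.23, adjusted p = 0.228 from limma). Bhmt2, the close relative of Bhmt, had 6191 ± 463 and 6565 ± 514 (SD, n = 4 each, log2 fold change -0.08, adjusted p = 0.639 from limma).

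Of the other small-molecule methyltransferases (8 tested, median -0.03), Tpmt, which methylates thiopurines, had the smallest p-value, with 2106 ± 463 and 1567 ± 131 normalized counts (SD, n = 4 each, log2 fold change 0.40, adjusted p = 0.240 from limma). In the transsulfuration and cysteine list (11 tested, median -0.13), Cdo1, the cysteine dioxygenase, differed by -0.39 on the log2 scale (limma adjusted p = 0.385). Its normalized counts were 29497 to 39104 in the Brap LKO livers and 30048 to 56629 in the Brap F/F livers, with Brap F/F replicates 2 and 3 highest, as for Mat1a and Gnmt. The smallest p-values of the serine list (6 tested, median -0.13) and of the methionine salvage and polyamine list (12 tested, median -0.14) were those of Srr, serine racemase (-0.16 on the log2 scale, limma adjusted p = 0.405), and Apip, a dehydratase of methionine salvage (-0.21, limma adjusted p = 0.438).

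**Figure D4:**
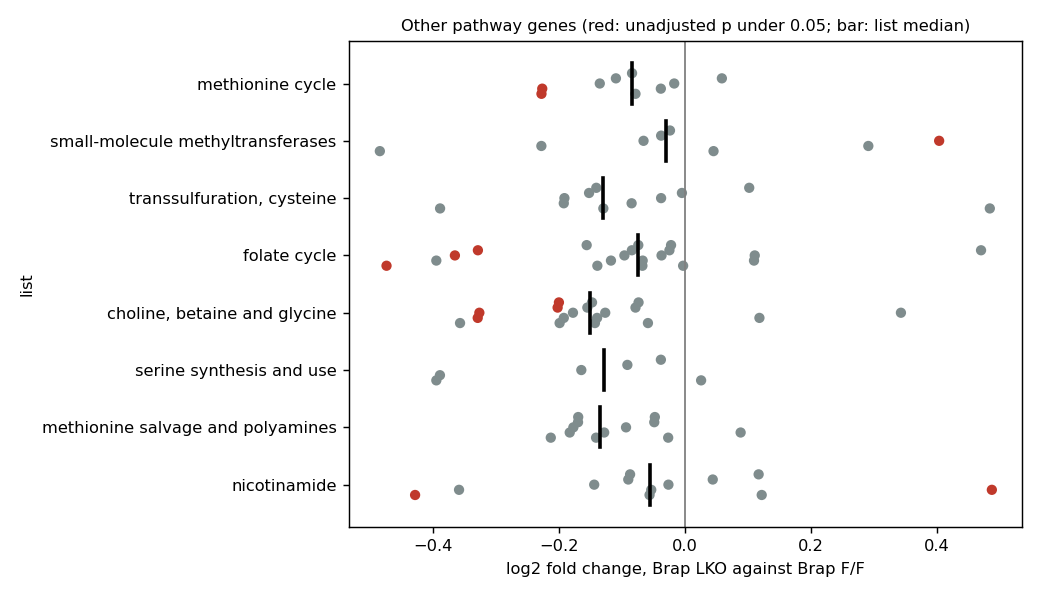
Log2 fold change in Brap LKO against Brap F/F livers (x axis) of the other tested pathway genes, 1 point per gene, by list (y axis), with black bars at the list medians. Red points have an unadjusted p under 0.05 from limma and none passed after adjustment. All 8 medians lie below 0 with the authors' size factors, between -0.15 and -0.03.

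Markers of other liver cells mostly had higher fitted values in the Brap LKO livers. Of the cholangiocyte markers, 8 of 8 had a fitted value above 0 (median 0.95), and Cftr passed the adjusted threshold. Their summed normalized count ranged from 3237 to 6518 in the Brap LKO livers and from 1346 to 4009 in the Brap F/F livers. For stellate cell and fibroblast markers this was 9 of 10 (median 0.71, Pdgfrb past the threshold), with sums of 7734 to 12223 and 5091 to 8798. Macrophage markers had values above 0 in 9 of 10 (median 0.39), with sums of 5444 to 10080 and 5833 to 7995, and lymphocyte markers in 8 of 8 (median 0.62), with sums of 321 to 577 and 245 to 330. Sinusoidal endothelial markers had values above 0 in 8 of 8, but a median of only 0.16. No marker of these lists was at 0 in every liver. Hepatocyte markers had values below 0 in 7 of 9 (median -0.19). Of the tested genes at least as abundant as Nnmt, 77.3% had a value below 0 (median -0.10). Over all tested genes 52% did (median -0.01), and 0.769% passed the adjusted threshold. The part of the marker differences in the values of the 9 enzymes was not tested.

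Zonal markers were also read, since enzymes of this pathway are not spread evenly over the lobule. Of 8 pericentral markers, 6 had a value above 0 and 2 below 0 (median 0.31). An unadjusted p-value under 0.05 from limma was found in 5 of them, all higher in the Brap LKO livers, and in 15.8% of all tested genes. Rhbg passed the adjusted threshold, as did 0.769% of all tested genes. The summed normalized count of the pericentral markers, led by abundant genes, was 268896 to 381917 in the Brap LKO livers and 308960 to 483686 in the Brap F/F livers. Of 8 periportal markers, 4 had a value above 0 and 4 below 0, with none past the adjusted threshold and a median of -0.12. Before adjustment 1 of them had a p-value under 0.05, Cdh1, which was higher in the Brap LKO livers and is also among the cholangiocyte markers. Their part in the values of the 9 enzymes was not tested.

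By the animal numbers in their labels the mice form 2 runs of numbers. The lower run has 3 Brap LKO and 1 Brap F/F animals and the higher run 1 Brap LKO and 3 Brap F/F animals, so that a difference within a run rests on a single animal of 1 genotype, and no test was run within a run. When the run was added to the limma fit as a covariate, 0 of the 9 enzymes passed the threshold (lowest adjusted p = 0.515). Their log2 fold changes were then -0.29 for Mat1a, -0.22 for Gnmt, -0.36 for Ahcy, -0.26 for Pemt, -0.23 for Nnmt, -0.14 for Shmt1, -0.08 for Cth, -0.04 for Bhmt and 0.15 for Cbs.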

How the data were processed

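Groups follow the genotype per the labels. RNA was isolated with TRIzol and column purification, and libraries (NuGEN Universal Plus mRNA) were sequenced as single-end reads and aligned to mm10 with STAR 2.6.0c, as the submitters' processing notes name it. The counting tool and its use of strand are not given in the sources used here. The deposited signal is the authors' read count per gene divided by a DESeq2 size factor per liver. All values (100%) were whole multiples of the smallest value of their liver (tolerance 0.01), and dividing by it gave back the reads. The authors' own DESeq2 comparison (means, log2 fold changes, p-values) was deposited too and was not used.

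log2(normalized count + 1) was fitted with limma 3.58.1 in R 4.3.3 (eBayes with trend, no covariates) for genes with a mean of at least 5. The threshold was an adjusted p-value of 0.05. edgeR 4.0.16 (quasi-likelihood) and DESeq2 1.42.0 on recovered reads were alternatives, as were other pseudocounts, filters and scalings, the replicate block, the animal number run and leaving out each liver. The fits were tested on simulated data. Exact permutation tests used all 70 splits of 4 against 4 livers (smallest p 0.0286). Positions, exon lengths and overlaps are from GENCODE M21 (mm10), and upstream sequences from RefSeq (GRCm38.p6), which had 6 of the 9 genes. Figures were drawn with matplotlib 3.10.9. Named genes are the 9 enzymes, Brap, per pathway list the genes past the threshold or else that with the smallest p-value, and 3 nearest genes for each of 3 enzymes, of which 1 is not reported here. Others were named after their values were seen. The enzymes and lists were chosen with earlier results of these data known. P-values set the difference between the groups against the spread between these livers.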

Additional observations from a re-analysis of the deposited data

How the results depend on the processing

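None of the 9 enzymes passed the adjusted threshold under any of the 19 alternatives. Mat1a, Gnmt, Ahcy and Pemt kept their direction in all of them, while the sign of the other 5 depended on the setting. Scaling moved the size of these 4, with the same total of reads per liver to -0.18 for Mat1a, -0.13 for Gnmt, -0.18 for Ahcy and -0.10 for Pemt, and with quantile normalization to -0.098, -0.11, -0.23 and -0.15 in that order. With the same total of reads per liver the log2 fold change was 0.0085 for Nnmt, 0.060 for Cth, 0.11 for Shmt1 and 0.086 for Brap, and with quantile normalization 0.00053 for Cth, 0.058 for Shmt1 and 0.0082 for Brap. Bhmt was at -0.044 with the animal number run as a covariate, and Cbs at -0.0020 with DESeq2. With 1 liver left out in turn, Bhmt ranged from -0.15 to 0.13 and Cbs from -0.10 to 0.11, and at an unadjusted p-value under 0.05 were Ahcy and Pemt without Brap LKO replicate 3, Gnmt, Ahcy and Pemt without Brap F/F replicate 1, Nnmt when Brap F/F replicate 3 was left out and Ahcy when Brap F/F replicate 4 was.

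Over all tested genes, 118 passed the threshold. The number was 479 with the same total per liver (459 higher), 78 after quantile normalization, 625 with DESeq2 (455 higher), while leaving out 1 liver gave from 18 (Brap LKO replicate 1, and likewise Brap F/F replicate 2) to 232 (Brap F/F replicate 4). Of the other pathway genes, 1 (Aox3) passed with the same total per liver, 4 with DESeq2, and between 0 and 1 (Cept1, without Brap F/F replicate 4) with 1 liver left out. The causes were not tested.

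The replicate numbers do not pair the livers by any label, and deviations of same-numbered livers correlated at -0.13, 0.0034, 0.20 and 0.29 over the tested genes for replicates 1 to 4, with the own number the best match for 3 of 4 Brap LKO livers. With the replicate block 95 genes passed, and 0 of the 9 enzymes (lowest adjusted p = 0.224 from limma, for Pemt). Ahcy and Pemt then had an unadjusted p-value under 0.05, at 0.0268 and 0.0219 from limma. The block changed no adjusted call of the enzymes or the pathway genes. With 4 livers a group, the 95% intervals of the enzymes span differences of either sign.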
